A study of Rattus norvegicus with 12 samples.

Results

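The chemokines and chemokine receptors examined here were genes whose symbol is Ccl, Cxcl, Xcl, Cx3cl, Ccr, Cxcr, Xcr, Cx3cr or Ackr followed by a digit, without the genes of the Ccr4-Not complex. There were 55 such symbols in both expression tables, each with a single entry. Of these, 46 reached an expression level of at least 0.5 FPKM (fragments normalized to transcript length and to the library's mapped total) in 3 or more samples of a table of 6, out of 15628 symbols that did so in either table. The 46 were 30 ligands, 14 signalling receptors and 2 atypical receptors. Of these, 39 could be tested in the adenine table, 44 in the UUO table and 37 in both. Neither Ccr2 nor Ackr1 was analysed.

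Whole kidneys of 12 male, wild-type SD rats gave the RNA, with 3 rats in each of 4 groups. Rats of the adenine group were gavaged with adenine over 3 weeks, at a daily 220 mg/kg, and rats of the control group with saline. In the UUO group (unilateral ureteral obstruction) the left ureter was ligated 2 weeks before the kidney was taken, and the sham group had the operation without ligation. The values for the control and adenine groups and those for the sham and UUO groups were deposited as separate tables, so that changes were tested within each table. All 10 genes fixed as markers of kidney tubule and glomerulus were present in every group. Their summed FPKM was 2130 to 3210 in control, 286 to 513 in adenine, 3330 to 3980 in sham and 266 to 407 in UUO kidneys.

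Chemokines are small secreted or membrane-bound proteins that draw leukocytes along a concentration gradient and hold them in tissue. They act through receptors that couple to inhibitory G proteins, whereas atypical receptors bind and internalize chemokines without that coupling and so shape the gradient. In the kidney, chemokines are made by tubular, endothelial, mesenchymal and immune cells, and most of the receptors are carried by leukocytes. In RNA from whole kidney, more cells of a type and more RNA per cell cannot be told apart.

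The promoters of 35 of the 46 genes were listed by RefSeq on the GRCr8 build, each as 250 bases before to 50 bases after the gene start. A kappaB-type motif, GGG and TTCC with 3 bases between on either strand, was in 9 of these 35 (25.7%) and in 5.37% of all 33469 promoters of the same length. The 9 genes were Ccl6, Ccl7, Ccl9, Ccl20, Cxcl1, Cxcl2, Cxcl6, Cxcl10 and Cxcl11. A core of the interferon-stimulated response element, GAAA repeated with 2 bases between on either strand, was in 2 of the 35 (5.71%), Ccl19 and Cxcl10, and in 3.92% of all promoters. Both motifs were chosen after the expression values had been seen, and a match is only a description of the letters. The sequences below are of matched genes on which the following results turn, with the motif matches in capitals, and overlapping matches share a run of capitals.
Ccl9 (chr10:68868828-68869127, minus strand): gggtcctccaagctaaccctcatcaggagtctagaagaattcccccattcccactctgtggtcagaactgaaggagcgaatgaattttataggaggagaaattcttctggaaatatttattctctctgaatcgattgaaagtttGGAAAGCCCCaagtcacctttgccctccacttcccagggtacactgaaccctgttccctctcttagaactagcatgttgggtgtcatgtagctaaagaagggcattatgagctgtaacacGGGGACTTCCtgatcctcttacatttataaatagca
Cxcl1 (chr14:17479272-17479571, minus strand): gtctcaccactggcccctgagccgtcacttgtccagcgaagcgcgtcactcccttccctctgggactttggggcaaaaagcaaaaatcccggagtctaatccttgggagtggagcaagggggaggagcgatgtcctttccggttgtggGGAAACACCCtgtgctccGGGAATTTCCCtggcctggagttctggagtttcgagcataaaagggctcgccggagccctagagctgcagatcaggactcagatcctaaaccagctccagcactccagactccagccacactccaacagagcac
Cxcl2 (chr14:17467206-17467505, minus strand): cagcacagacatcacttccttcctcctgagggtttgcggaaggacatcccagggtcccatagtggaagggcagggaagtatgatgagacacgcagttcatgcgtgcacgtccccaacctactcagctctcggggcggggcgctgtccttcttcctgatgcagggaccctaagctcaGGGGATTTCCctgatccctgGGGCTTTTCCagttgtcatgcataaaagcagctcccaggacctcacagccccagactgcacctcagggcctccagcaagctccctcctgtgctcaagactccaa
Cxcl6 (chr14:17596368-17596667, minus strand): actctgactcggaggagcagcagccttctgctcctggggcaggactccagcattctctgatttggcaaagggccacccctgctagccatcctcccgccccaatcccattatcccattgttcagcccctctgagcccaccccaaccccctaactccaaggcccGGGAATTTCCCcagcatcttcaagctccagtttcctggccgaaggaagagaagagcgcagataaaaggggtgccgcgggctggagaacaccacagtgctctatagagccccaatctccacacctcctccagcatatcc
Cxcl10 (chr14:15988816-15989115, plus strand): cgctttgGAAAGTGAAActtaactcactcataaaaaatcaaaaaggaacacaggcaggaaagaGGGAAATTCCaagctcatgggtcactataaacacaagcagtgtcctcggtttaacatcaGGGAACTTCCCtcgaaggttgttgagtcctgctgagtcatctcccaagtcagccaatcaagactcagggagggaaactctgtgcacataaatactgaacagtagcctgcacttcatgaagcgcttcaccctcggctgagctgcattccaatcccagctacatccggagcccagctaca
Ccl19 (chr5:61761115-61761414, minus strand): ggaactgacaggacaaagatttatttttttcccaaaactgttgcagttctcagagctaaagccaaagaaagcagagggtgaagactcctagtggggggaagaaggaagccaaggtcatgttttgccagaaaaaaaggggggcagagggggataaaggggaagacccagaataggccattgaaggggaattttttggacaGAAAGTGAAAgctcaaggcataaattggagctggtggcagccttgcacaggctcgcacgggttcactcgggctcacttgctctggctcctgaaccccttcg
The promoters of Cxcl2 and Cxcl1 held 2 and 3 matches and that of Ccl9 held 2. The Cxcl10 promoter held 4 matches, of which 1 was the interferon-type core. The promoters listed for Ccr1, Cxcl9 and Xcl1 held neither set of letters, and none was listed for Ccl3 or Ccl5.

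Changes were tested with limma, a linear model per gene, on log2(FPKM + 0.1). A gene rose or fell where the Benjamini-Hochberg adjusted p over the whole table was under 0.05, and it was a DEG (differentially expressed gene) where the absolute log2 fold change was also at least 2. In the adenine model, 17 of 29 tested ligands and 6 of 8 tested receptors were upregulated DEGs, and neither of the 2 atypical receptors was. Together these were 23 of 39 (59.0%), beside 10.7% of all tested genes. The median log2 fold change was 2.46 in ligands and 2.84 in receptors, and 0.30 over all tested genes. In the UUO model, 22 of 29 ligands and 11 of 13 receptors were upregulated DEGs, 33 of 44 with the atypical receptors (75.0%), beside 13.2% of all tested genes. The medians were 2.82 in ligands and 3.17 in receptors, and 0.62 over all genes. Downregulated DEGs numbered 0 of 39 with adenine and 1 of 44 (Ccr10) after UUO, beside 5.03% and 4.21% of all tested genes. Without the fold threshold, 27 of 39 rose and 3 fell in the adenine model, beside 39.6% and 19.9% of all tested genes, and 35 of 44 rose and 2 fell in the UUO model, beside 56.1% and 14.4%. Diseased and healthy rats did not overlap in 26 genes that were higher and 4 that were lower with adenine, beside 45.0% and 23.0% of all tested genes, and in 35 and 2 genes after UUO, beside 60.0% and 15.7%. Over both models, 18 of the DEG calls fell under the fold threshold with a pseudocount of 1, and 8 were lost with median-of-ratios scaling.

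The minimum FPKM bears on these counts, because a gene that is silent in healthy kidney passes it only by rising. The minimum bears in the same way on the marker and pathway lists below. With adenine, 9 genes reached the minimum in diseased rats alone, namely Ccl12, Ccl22, Cxcl2, Cxcl3, Cxcl6, Cxcl17, Ccr1, Ccr8 and Cxcr6, and all 9 were upregulated DEGs. Their lack of overlap with control rats was fixed by the minimum as well. Among the 30 that reached the minimum in at least 1 control rat, 14 were upregulated DEGs, beside 7.60% of all genes of that kind. The median log2 fold change of these 30 was 1.96. After UUO, 13 genes passed by diseased rats alone, all upregulated DEGs, and 20 of the other 31 were upregulated DEGs beside 9.86% of all such genes. The minimum likewise kept the 13 apart from sham rats, and the median of the other 31 was 2.59. At the edge of the minimum, Ccr8 in adenine rats (0.551, 0.594 and 0.589 FPKM) and Cxcr5 in UUO rats (0.510, 0.176 and 0.624) were inside. Xcr1 in adenine rats (0.241, 0.845 and 0.590) and Ackr2 in UUO rats (0.717, 0.517 and 0.488) were outside. Ackr2, Ccl1, Ccl11, Ccl25, Ccl26, Ccr1l1, Ccr3, Ccr9 and Cxcr1 reached it in neither table.

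**Figure D1:**
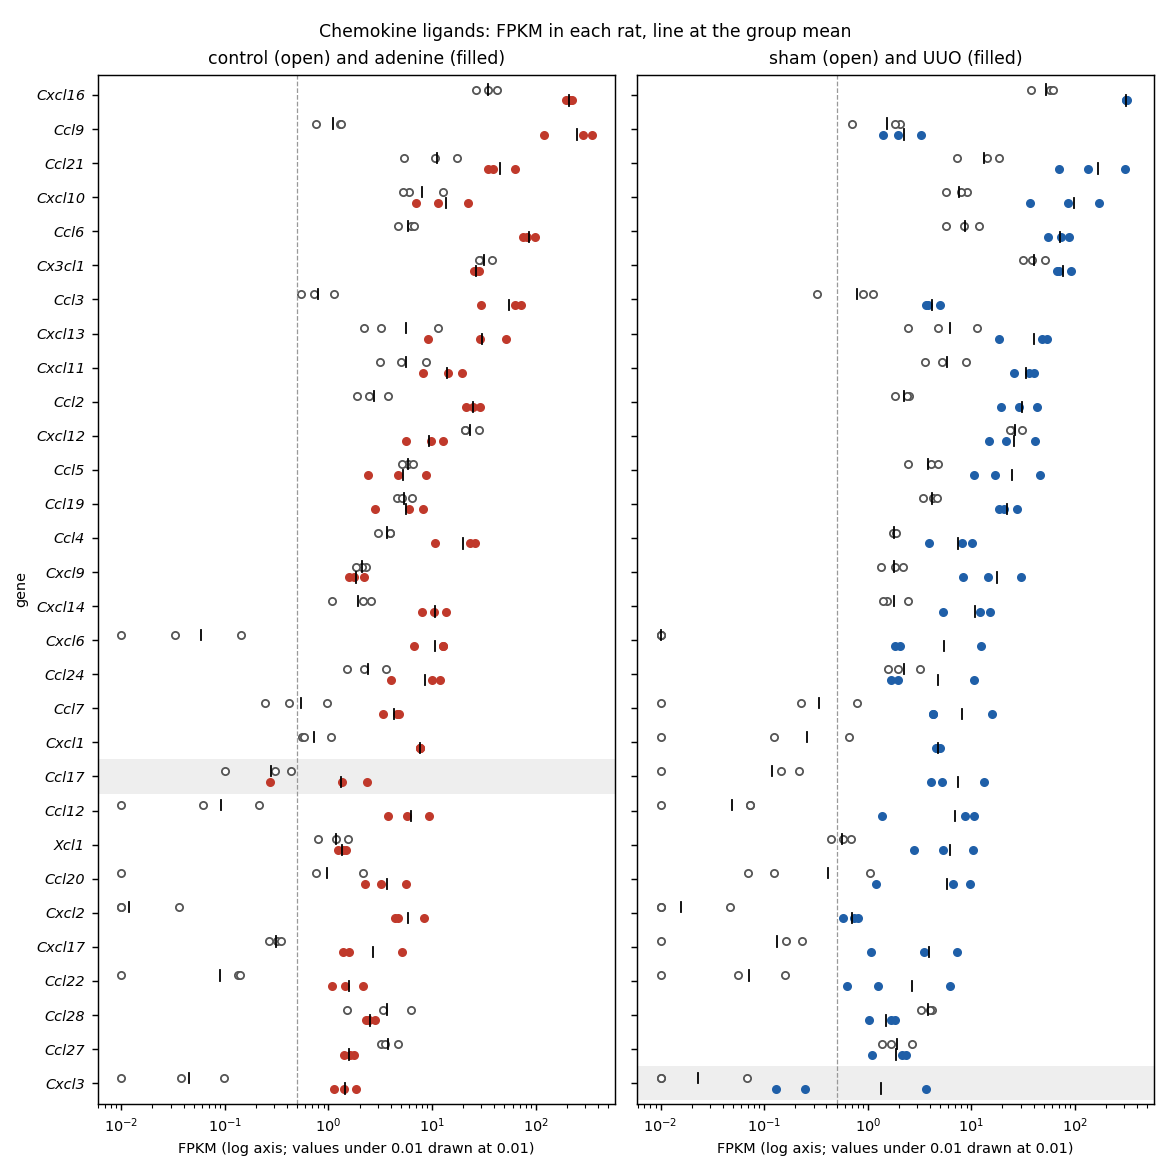
FPKM of 30 chemokine ligands in each rat on a log axis, ordered by the higher diseased mean, with control and sham rats as open circles, diseased rats as filled circles and a tick at each group mean. The dashed line is at 0.5 FPKM and grey rows were not tested. Ccl9 is over 100 FPKM in the 3 adenine rats and under 4 in the UUO rats, and Cxcl16 is high in both.

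Ccl9, a rodent ligand of Ccr1, had the largest limma log2 fold change of any member in the adenine model. By the log2 ratio of group means, Cxcl2 was above it (8.92 against 7.83), from control values near 0. Ccl9 was at 0.753, 1.28 and 1.31 FPKM in control rats and at 347, 120 and 290 in adenine rats, a log2 fold change of 7.60 (SE 0.42, adjusted p = 4.03e-05). In the sham rats Ccl9 was at 2.04, 1.84 and 0.705 FPKM and in the UUO rats at 3.30, 1.97 and 1.39, so that those groups overlapped (log2 fold change 0.55, SE 0.47, adjusted p = 0.321). In adenine kidneys Ccl9 was among the most abundant chemokines, with a mean of 252 ± 118 FPKM (SD, n = 3) that overlapped the 211 ± 14.4 of Cxcl16.

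Ccl3, which binds Ccr1, behaved in the same direction. Its FPKM went from 0.724, 0.547 and 1.12 in control rats to 71.5, 29.4 and 63.7 in adenine rats (log2 fold change 5.89, SE 0.39, adjusted p = 6.5e-05), and from 1.13, 0.907 and 0.327 in sham rats to 3.78, 3.64 and 4.97 in UUO rats (2.37, SE 0.41, adjusted p = 0.00201). Neither comparison overlapped. The UUO call fell below the threshold of 2 without sham rat 3 (1.91), with a pseudocount of 1 (1.54) and with 2 other scalings (1.81 and 1.55).

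Ccl6, another rodent Ccr1 ligand, rose from 6.33, 4.72 and 6.69 to 82.3, 75.7 and 99.6 FPKM with adenine and from 11.9, 8.46 and 5.75 to 87.2, 54.5 and 74.0 after UUO, log2 fold changes of 3.84 (SE 0.17, adjusted p = 2.61e-05) and 3.06 (SE 0.29, adjusted p = 0.000133). Unlike Ccl9, its diseased levels were of the same order in both tables. Ccl4, a close relative of Ccl3, was at 3.97, 3.03 and 3.94 FPKM in control and 26.2, 10.8 and 23.3 in adenine rats (2.34, SE 0.34, adjusted p = 0.00128). In the UUO table it was at 1.78, 1.75 and 1.89 and then 3.87, 8.18 and 10.2 (1.87, SE 0.35, adjusted p = 0.00266), a rise short of the DEG threshold that passed it without UUO rat 1 (2.28).

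Ccl5, which draws T cells and monocytes, gave the opposite order of models. It was at 5.86, 5.10 and 6.56 FPKM in control and 2.43, 8.72 and 4.70 in adenine rats, with overlap (log2 fold change -0.32, SE 0.43, adjusted p = 0.548). In sham rats it was at 4.04, 4.82 and 2.47 and in UUO rats at 17.0, 10.7 and 46.3, without overlap (2.46, SE 0.53, adjusted p = 0.00542). The value was under the DEG threshold without UUO rat 3 (1.87) and with 2 other scalings (1.86 and 1.84).

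The receptor Ccr1, carried by monocytes, macrophages and neutrophils, was at 0.0389, 0.101 and 0.245 FPKM in control rats and 30.8, 13.8 and 27.0 in adenine rats (log2 fold change 6.73, SE 0.43, adjusted p = 6.18e-05). In the other table it was at 0.182, 0.107 and 0.359 in sham and 3.31, 2.05 and 3.58 in UUO rats (3.32, SE 0.38, adjusted p = 0.000318, and 1.69 with a pseudocount of 1). Ccr1 became the receptor with the highest mean in adenine kidneys (23.9 ± 8.93 FPKM), where its range overlapped that of Cxcr4 (20.5 ± 2.14). For Ccr1, diseased and healthy rats did not overlap in either table. The minimum had fixed this, since only diseased rats reached it.

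Markers of monocytes and macrophages rose in both models, also in the UUO model where Ccl9 was not called and in the adenine model where Ccl5 was not. All 8 listed markers were upregulated DEGs in each model, beside 10.7% of all tested genes with adenine and 13.2% after UUO. Of the 8, Itgam and Cd163 reached the minimum in diseased rats alone in both tables. The 8 markers had a median log2 fold change of 5.47 with adenine and 3.50 after UUO. Their summed FPKM was 160 to 229 in control rats and 13100, 6450 and 9730 in adenine rats 1, 2 and 3, and 187 to 313 in sham and 1410 to 2110 in UUO rats. Most of each sum was Lyz2, and the other 7 markers summed to 15.3 to 18.7 in control, 786, 484 and 684 in adenine, 16.7 to 24.8 in sham and 197 to 240 in UUO rats. Adenine rat 2, lowest of its group for Ccl9, Ccl3, Ccl4 and Ccr1, was lowest in both sums but highest for the markers Mrc1 (10.5, 18.6 and 14.0 FPKM in rats 1, 2 and 3) and Cd163 (5.63, 9.31 and 9.15). The part of macrophage number in these changes was not tested.

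Ligands of the monocyte receptor Ccr2 rose in both models. Ccl2, which draws monocytes out of the blood, was at 1.89, 2.49 and 3.80 FPKM in control and 21.1, 29.0 and 24.8 in adenine rats (log2 fold change 3.19, SE 0.26, adjusted p = 0.000134), and at 2.49, 2.41 and 1.83 in sham and 43.3, 19.5 and 29.0 in UUO rats (3.65, SE 0.29, adjusted p = 7.38e-05). Ccl12, its rodent relative, was at most 0.214 FPKM in control and 3.78, 5.79 and 9.36 in adenine rats (5.13, SE 0.51, adjusted p = 0.000274). It was at most 0.0728 in sham and 8.60, 10.7 and 1.37 in UUO rats (5.17, SE 0.76, adjusted p = 0.000952). Ccl7, which binds several CC receptors, rose from 0.421, 0.244 and 0.959 to 3.37, 4.57 and 4.81 FPKM in the adenine model (2.90, SE 0.42, adjusted p = 0.00131). After UUO it rose from at most 0.788 to 15.9, 4.25 and 4.26 (4.45, SE 0.87, adjusted p = 0.00343). Ccl2 and Ccl7 were separated from healthy rats in both tables, as was Ccl12, for which the minimum had fixed it. UUO rat 1 had the highest Ccl2 and Ccl7. With a pseudocount of 1, the Ccl7 log2 fold change in the adenine model was 1.78.

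Several chemokines are close relatives in sequence (Cxcl1, Cxcl2 and Cxcl3, Ccl3 and Ccl4, Ccl6 and Ccl9, and Ccl2, Ccl7 and Ccl12), and how reads shared by relatives were assigned is not given in the sources used here.

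The CXC ligands that draw neutrophils through Cxcr2 were close to absent in healthy kidneys. Cxcl1 was at 0.553, 0.575 and 1.06 FPKM in control and 7.63, 7.59 and 7.73 in adenine rats (log2 fold change 3.28, SE 0.26, adjusted p = 0.000113). It was at 0.656, 0.0001 and 0.125 in sham and 4.71, 4.98 and 4.56 in UUO rats (4.24, SE 0.68, adjusted p = 0.00143). The diseased values varied little between rats in either model.

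Cxcl2 was at 0.0360, 0 and 0 FPKM in control and 8.45, 4.35 and 4.69 in adenine rats, but reached only 0.578, 0.741 and 0.811 in UUO rats, from 0.0473 and then 0.0001 in the other two sham rats. Its log2 fold changes were 5.68 (SE 0.34, adjusted p = 5.07e-05) and 2.82 (SE 0.37, adjusted p = 0.000562), and with healthy values this low their size depends on the pseudocount (0.75 in the UUO model with a pseudocount of 1). Cxcl6 was at 0.0328, 0 and 0.143 FPKM in control and 6.69, 12.7 and 12.7 in adenine rats (6.13, SE 0.42, adjusted p = 7.31e-05). In all 3 sham rats Cxcl6 was listed at the lowest value of the table, and it was at 1.84, 12.3 and 2.04 in UUO rats, an upregulated DEG (adjusted p = 0.000687) for which no fold is given. Cxcl3 was at most 0.0976 FPKM in control and 1.41, 1.12 and 1.84 in adenine rats (3.45, SE 0.37, adjusted p = 0.000378, and 1.22 with a pseudocount of 1). In the UUO table Cxcl3 was not tested, with 0.249, 3.66 and 0.131 FPKM in UUO rats.

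Their receptor Cxcr2, which marks neutrophils, was at 0.106, 0.0001 and 0.0001 FPKM in sham and 1.22, 1.55 and 0.660 in UUO rats (log2 fold change 3.22, SE 0.48, adjusted p = 0.000958, and 1.03 with a pseudocount of 1). In the adenine table it was at 0.367, 1.33 and 0.644 in adenine rats, under the minimum for the test, and at most 0.0320 in control rats. Listed neutrophil markers (7 genes, of which 4 were tested) were upregulated DEGs in 3 of 4 cases in the adenine and 4 of 4 in the UUO model, beside 10.7% and 13.2% of all tested genes. Of the called genes, Csf3r reached the minimum in diseased rats alone in both tables, as did S100a8 in the adenine table. The 7 markers summed to 1.48 to 2.92 FPKM in control, 16.1 to 28.0 in adenine and 0.570 to 2.14 in sham rats, and 45.5, 56.9 and 8.53 in UUO rats 1, 2 and 3. Elane was at the lowest value in sham and UUO rats alike, and Camp and Mpo in sham rats. UUO rat 2 was highest and UUO rat 3 lowest for Cxcr2 and for the marker sum. The part of neutrophil number was not tested.

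The ligands of Cxcr3, which recruit activated T cells and NK cells and are known as targets of interferon gamma, rose in the UUO model. Cxcl9 was at 2.17, 1.83 and 1.35 FPKM in sham and 14.4, 8.24 and 30.2 in UUO rats (log2 fold change 3.06, SE 0.45, adjusted p = 0.000984). Cxcl10 was at 8.99, 7.90 and 5.72 in sham and 85.3, 170 and 36.9 in UUO rats (3.44, SE 0.52, adjusted p = 0.00103). Cxcl11 was at 8.80, 5.26 and 3.55 in sham and 25.9, 40.2 and 36.0 in UUO rats (2.59, SE 0.33, adjusted p = 0.000508, and 1.99 with median-of-ratios scaling). No sham rat overlapped a UUO rat for these genes, though the highest UUO rat was rat 3 for Cxcl9 and rat 2 for Cxcl10 and Cxcl11.

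In the adenine model Cxcl9 was at 2.32, 2.10 and 1.84 FPKM in control and 2.19, 1.77 and 1.59 in adenine rats (log2 fold change -0.17, SE 0.20, adjusted p = 0.486). Cxcl10 was at 5.97, 12.7 and 5.28 in control and 7.00, 11.4 and 22.3 in adenine rats (0.71, SE 0.49, adjusted p = 0.247). Both genes overlapped between groups. Cxcl11 rose by less than the DEG threshold (1.33, SE 0.44, adjusted p = 0.0351), from 3.18, 5.00 and 8.77 to 8.27, 14.3 and 19.3, and its groups overlapped.

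The receptor Cxcr3 was at 0.906, 0.975 and 0.638 FPKM in sham and 4.52, 4.48 and 14.1 in UUO rats (log2 fold change 2.85, SE 0.46, adjusted p = 0.00145). It was at 1.19, 0.620 and 0.446 in control and 1.52, 2.40 and 2.14 in adenine rats (1.39, SE 0.37, adjusted p = 0.0159), a smaller rise without overlap. Xcl1, made by NK cells and CD8 T cells, was at 0.578, 0.685 and 0.438 FPKM in sham and 5.33, 2.81 and 10.4 in UUO rats (3.06, SE 0.46, adjusted p = 0.00103). In the adenine model it was at 0.801, 1.19 and 1.56 in control and 1.24, 1.48 and 1.37 in adenine rats (0.23, SE 0.27, adjusted p = 0.497), with overlap. Its receptor Xcr1, found on the dendritic cells that cross-present antigen, was at 0.132, 0.0924 and 0.250 FPKM in sham and 2.14, 2.15 and 2.15 in UUO rats (3.17, SE 0.31, adjusted p = 0.000147, and 1.45 with a pseudocount of 1). Xcr1 was not tested in the adenine table.

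T cell markers rose in both models, also in the adenine model where Cxcl9, Cxcl10 and Xcl1 were not called. All 8 T cell markers were upregulated DEGs in the UUO model and 5 of 8 in the adenine model, beside 13.2% and 10.7% of all tested genes. With adenine all 8 rose by the adjusted p, beside 39.6% of all tested genes, and Cd5 reached the minimum in adenine rats alone. The median log2 fold changes were 3.24 after UUO and 2.05 with adenine. The 8 markers had a summed FPKM of 15.4 to 22.3 in sham rats and 165, 133 and 297 in UUO rats 1, 2 and 3, and of 10.4 to 17.2 in control and 126 to 129 in adenine rats. Cd4, which rat macrophages also carry, was the largest term, and the other 7 markers summed to 6.98 to 10.9 in sham, 73.0, 60.1 and 176 in UUO, 7.33 to 9.81 in control and 24.4 to 46.1 in adenine rats. Of the NK cell markers, 4 of 4 tested were upregulated DEGs in the UUO and 0 of 2 tested in the adenine model, beside 13.2% and 10.7% of all tested genes. Of the 4, Gzmb and Klrd1 reached the minimum in UUO rats alone. The NK sum was 1.71 to 2.04 in sham and 19.4, 13.2 and 33.3 in UUO rats, and 1.49 to 2.68 in control and 1.67 to 3.75 in adenine rats. UUO rat 3 was the highest for both sums and for Cxcl9, Ccl5, Xcl1 and Cxcr3. The part of lymphocyte number in these values was not tested.

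**Figure D2:**
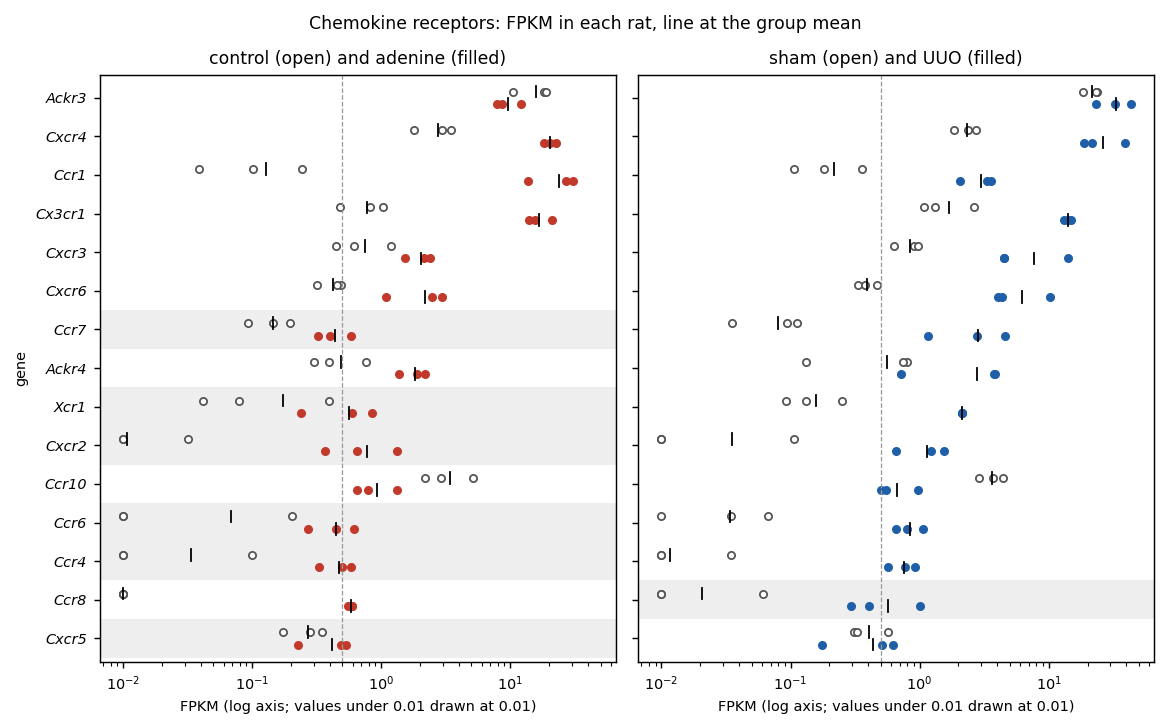
FPKM of 13 signalling and 2 atypical chemokine receptors in each rat on a log axis, ordered by the higher diseased mean, with control and sham rats as open circles, diseased rats as filled circles and a tick at each group mean. The dashed line is at 0.5 FPKM and grey rows were not tested. Ccr1 is higher in the adenine than in the UUO rats, and Ccr10 is lower in diseased than in healthy rats in both tables.

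Cxcl16 and Cx3cl1, the 2 chemokines that are anchored in the cell membrane, had the highest mean levels of healthy kidneys. Cxcl16, which also serves as a scavenger receptor, rose from 42.8, 34.4 and 26.5 to 196, 225 and 213 FPKM in the adenine model (log2 fold change 2.63, SE 0.18, adjusted p = 7.24e-05) and from 37.5, 58.1 and 61.7 to 312, 309 and 319 in the UUO model (2.61, SE 0.19, adjusted p = 4.99e-05). It was the ligand with the highest mean in UUO kidneys. Its receptor Cxcr6, carried by T cells and NKT cells, was at 0.331, 0.467 and 0.378 FPKM in sham and 4.32, 4.03 and 10.3 in UUO rats (3.56, SE 0.38, adjusted p = 0.000238). It was at 0.490, 0.453 and 0.318 in control and 1.08, 2.97 and 2.46 in adenine rats (2.03, SE 0.40, adjusted p = 0.00481), a call at the threshold that was lost without control rat 3 (1.88), adenine rat 2 (1.76) or adenine rat 3 (1.89).

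Cx3cl1 (fractalkine), an adhesive chemokine of endothelium and epithelium, was at 29.2, 28.6 and 38.3 FPKM in control and 28.3, 26.5 and 25.4 in adenine rats (log2 fold change -0.25, SE 0.14, adjusted p = 0.160). It rose from 51.4, 38.4 and 31.8 to 66.9, 69.6 and 91.8 in the UUO model (0.92, SE 0.20, adjusted p = 0.00564), short of the DEG threshold. Its receptor Cx3cr1, a marker of resident macrophages and patrolling monocytes, was at 1.04, 0.479 and 0.815 FPKM in control and 15.5, 21.0 and 13.9 in adenine rats (4.30, SE 0.29, adjusted p = 7.08e-05). In the other table it was at 2.63, 1.32 and 1.09 in sham and 14.0, 13.1 and 14.9 in UUO rats (3.08, SE 0.31, adjusted p = 0.000168). Receptor values were separated from healthy rats in both tables.

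The chemokines that organize lymphoid tissue differed among themselves. Ccl21, made by lymphatic endothelium, was at 17.3, 5.34 and 10.6 FPKM in control and 39.1, 62.6 and 35.1 in adenine rats (log2 fold change 2.14, SE 0.43, adjusted p = 0.00530, and 1.70 without control rat 2 or 1.89 without adenine rat 2). It was at 7.29, 14.2 and 18.3 in sham and 70.1, 133 and 303 in UUO rats (3.51, SE 0.56, adjusted p = 0.00141). Ccl19, the other ligand of Ccr7, was at 4.64, 6.43 and 5.18 in control and 6, 8.1 and 2.8 in adenine rats, with overlap (-0.06, SE 0.38, adjusted p = 0.907). After UUO it rose from 3.39, 4.31 and 4.70 to 18.7, 20.8 and 27.5 (2.40, SE 0.19, adjusted p = 7.17e-05, and 1.81 and 1.78 with 2 other scalings). Ccr7 itself, which guides dendritic cells and naive T cells to lymphatics and lymph nodes, was at most 0.112 FPKM in sham and 4.63, 2.78 and 1.17 in UUO rats (3.87, SE 0.51, adjusted p = 0.000591, and 1.73 with a pseudocount of 1), and was under the minimum in adenine rats.

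Of 5 tested markers of lymphatic and blood endothelium, 3 were upregulated DEGs in the UUO and 0 in the adenine model, beside 13.2% and 10.7% of all tested genes. Without the fold threshold 3 of 5 rose in each model, beside 56.1% of all tested genes after UUO and 39.6% with adenine. Prox1 (log2 fold change -1.06 after UUO and 0.02 with adenine) and Kdr (0.28 and -0.72) rose in neither. The 5 markers summed to 18.6 to 31.4 FPKM in sham and 61.3 to 85.7 in UUO rats, and 14.5 to 19.2 in control and 23.0 to 27.4 in adenine rats. The part of endothelial cells in the Ccl21 values was not tested.

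Cxcl13, which draws B cells into follicles, was at 2.23, 3.19 and 11.3 FPKM in control and 9.12, 29.0 and 52.1 in adenine rats. These groups overlapped, and the call (log2 fold change 2.44, SE 0.79, adjusted p = 0.0332) was lost (adjusted p between 0.0855 and 0.105) without control rat 1 (1.98), control rat 2 (2.23), adenine rat 2 (2.31) or adenine rat 3 (1.88). The call was also lost with no minimum FPKM (adjusted p = 0.0514), median-of-ratios scaling (0.0507) and quantile normalization (0.053). Cxcl13 in the other table was at 11.4, 2.45 and 4.79 and then 18.4, 54.1 and 47.9 (2.80, SE 0.62, adjusted p = 0.00605), without overlap. Its receptor Cxcr5 was at 0.311, 0.327 and 0.574 in sham and 0.510, 0.176 and 0.624 in UUO rats (0.02, SE 0.46, adjusted p = 0.977). B and plasma cell markers were upregulated DEGs in 1 of 4 tested in the adenine and 4 of 5 in the UUO model, beside 10.7% and 13.2% of all tested genes. Of the UUO calls, Ms4a1, Cd22 and Cd79b reached the minimum in UUO rats alone, and Mzb1 was called in neither model. The marker sum was 20.4 to 49.3 in adenine and 24.0 to 75.8 in UUO rats, beside at most 6.72 in control and 5.74 in sham rats. Most of each diseased sum was Jchain. The other markers summed to 4.51 to 6.16 in adenine and 5.18 to 10.8 in UUO rats, beside 1.94 to 3.66 in control and 1.21 to 2.5 in sham rats.

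Ccl17 and Ccl22, made by dendritic cells and macrophages for Ccr4 on helper and regulatory T cells, were nearly silent in healthy kidneys. In UUO rats Ccl17 reached 13.2, 4.12 and 5.19 FPKM from at most 0.215 in sham rats (log2 fold change 5.08, SE 0.58, adjusted p = 0.000313). Ccl22 reached 6.16, 1.25 and 0.634 from at most 0.158 (3.53, SE 0.82, adjusted p = 0.00721, and 0.054 with no minimum FPKM). Ccr4 reached 0.766, 0.565 and 0.925 from at most 0.0348 (2.92, SE 0.37, adjusted p = 0.000490, and 0.79 with a pseudocount of 1). UUO rat 1 was the highest for both ligands. In adenine rats Ccl22 was at 1.44, 2.17 and 1.09 from at most 0.139 in control rats (3.18, SE 0.46, adjusted p = 0.00123, and 1.21 with a pseudocount of 1), while Ccr4 was under the minimum. Ccl17 was at 1.34, 2.37 and 0.271 in adenine and 0.307, 0.431 and 0.101 in control rats, and was not tested because only 2 samples reached the minimum. Dendritic cell markers were upregulated DEGs in 2 of 4 tested in the adenine and 3 of 4 in the UUO model, beside 10.7% and 13.2% of all tested genes. The marker sums were 12.4 to 16 in adenine and 18.2 to 25.7 in UUO rats, beside at most 3.98 in control and 3.79 in sham rats.

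Ccl20, the ligand of Ccr6 on Th17 cells, dendritic cells and B cells, was at 1.06, 0.124 and 0.0699 FPKM in sham and 9.73, 1.2 and 6.59 in UUO rats (log2 fold change 3.64, SE 0.98, adjusted p = 0.0138, and 0.0877 with no minimum FPKM). In the adenine model it was at 0.764, 0 and 2.16 in control and 2.25, 5.62 and 3.19 in adenine rats (2.61, SE 1.08, adjusted p = 0.0756), which passed without control rat 3 (3.59). Ccr6 reached 0.662, 0.798 and 1.07 FPKM in UUO rats from at most 0.0667 in sham rats (2.82, SE 0.38, adjusted p = 0.000607, and 0.83 with a pseudocount of 1). Ccr8, a receptor of regulatory and type 2 helper T cells, was listed at 0 in all control rats and at 0.551, 0.594 and 0.589 FPKM in adenine rats, an upregulated DEG (adjusted p = 0.000494) for which no fold is given.

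Cxcl12, the retention signal for leukocytes and progenitor cells, moved apart from its receptor Cxcr4. It fell in the adenine model, from 20.8, 28.4 and 20.9 to 12.8, 9.82 and 5.56 FPKM without overlap (log2 fold change -1.37, SE 0.31, adjusted p = 0.00803). In the other table it was at 23.9, 23.7 and 30.9 and then 21.7, 14.8 and 41.2 (-0.13, SE 0.35, adjusted p = 0.754), with overlap. Cxcr4 rose in both, from 1.78, 2.93 and 3.49 to 20.3, 18.4 and 22.7 in the adenine model (2.91, SE 0.25, adjusted p = 0.000161) and from 2.73, 1.85 and 2.38 to 39.2, 21.8 and 18.7 in the UUO model (3.40, SE 0.30, adjusted p = 9.96e-05).

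The atypical receptor Ackr3, which clears Cxcl12 and Cxcl11, was at 18.1, 10.4 and 18.8 FPKM in control and 8.61, 12.1 and 7.89 in adenine rats (log2 fold change -0.70, SE 0.27, adjusted p = 0.0633). It was at 18.3, 23.7 and 23.2 in sham and 43.4, 32.9 and 23.3 in UUO rats (0.57, SE 0.23, adjusted p = 0.0602). Ackr4, which clears Ccl19, Ccl21 and Ccl25, rose from 0.764, 0.395 and 0.300 to 2.20, 1.38 and 1.88 in the adenine model (1.77, SE 0.36, adjusted p = 0.00515). UUO rats had 3.85, 3.79 and 0.712 and sham rats 0.131, 0.806 and 0.738 (2.05, SE 0.79, adjusted p = 0.0521), and it passed the threshold without UUO rat 3 (2.81).

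Ccr10 fell in both models, and its ligands Ccl27 and Ccl28, known from epithelia, each fell in one of them. Ccr10 was the signalling receptor with the highest mean in healthy kidneys (3.40 ± 1.54 FPKM in control and 3.66 ± 0.766 in sham rats), with a range that overlapped that of Cxcr4 in control rats. It fell from 5.12, 2.17 and 2.90 to 0.652, 1.33 and 0.785 in the adenine model (log2 fold change -1.74, SE 0.39, adjusted p = 0.00772) and from 2.87, 4.40 and 3.72 to 0.547, 0.964 and 0.5 in the UUO model (-2.32, SE 0.30, adjusted p = 0.000504), without overlap in either. The adenine value passed the DEG threshold without control rat 2 or adenine rat 2 (-2.01 in each case), with median-of-ratios scaling (-2.01) and with quantile normalization (-2.27), so that 1 member was a downregulated DEG there in place of 0. The UUO value was -1.48 with a pseudocount of 1.

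Ccl27 fell in the adenine model, from 3.21, 3.49 and 4.70 to 1.77, 1.41 and 1.60 FPKM (log2 fold change -1.19, SE 0.21, adjusted p = 0.00275), and was at 2.66, 1.66 and 1.38 in sham and 2.36, 2.15 and 1.10 in UUO rats (-0.04, SE 0.37, adjusted p = 0.930). Ccl28 fell in the UUO model, from 4.19, 3.30 and 3.97 to 1.69, 1.03 and 1.83 (-1.31, SE 0.25, adjusted p = 0.00321), and was at 3.35, 1.52 and 6.27 in control and 2.80, 2.33 and 2.47 in adenine rats (-0.33, SE 0.47, adjusted p = 0.570). The test of the difference between the models called neither ligand. The difference, UUO minus adenine, was 1.16 for Ccl27 (adjusted p = 0.057) and -0.98 for Ccl28 (adjusted p = 0.184). The summed kidney markers given above were lower in diseased rats too. Of these markers, 3 of 10 were downregulated DEGs in the adenine and 6 of 10 in the UUO model, beside 5.03% and 4.21% of all tested genes. The part of epithelial loss in these falls was not tested. The eosinophil chemokine Ccl26 was under the minimum, at 0.546, 0.749 and 0.216 FPKM in control and 0, 0 and 0.158 in adenine rats, and at 0.430, 0.177 and 1.05 in sham and 0.0001, 0.0001 and 0.0902 in UUO rats.

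The remaining tested ligands were Cxcl14, Cxcl17 and Ccl24. Cxcl14, an epithelial and stromal chemokine, rose from 2.58, 2.15 and 1.09 to 13.8, 7.95 and 10.5 FPKM in the adenine model (log2 fold change 2.46, SE 0.35, adjusted p = 0.00119) and from 1.54, 1.41 and 2.45 to 15.1, 5.32 and 12.1 in the UUO model (2.44, SE 0.41, adjusted p = 0.00176, and 1.68 to 1.99 with a pseudocount of 1 and 2 other scalings). Cxcl17, a chemokine of mucosal surfaces, reached 1.39, 1.57 and 5.19 in adenine rats from at most 0.351 in control rats (2.52, SE 0.50, adjusted p = 0.00483, and 1.94 without adenine rat 3) and 3.52, 7.25 and 1.07 in UUO rats from at most 0.231 in sham rats (3.93, SE 0.76, adjusted p = 0.00316). With a pseudocount of 1 these values were 1.36 and 1.92. Ccl24, a ligand of the eosinophil receptor Ccr3, was at 2.22, 3.57 and 1.52 in control and 12.0, 4.04 and 9.89 in adenine rats (1.73, SE 0.47, adjusted p = 0.0174, and 2.04 without control rat 2 or 2.20 without adenine rat 2). In UUO rats it was at 10.6, 1.69 and 1.97 beside 1.56, 1.94 and 3.20 in sham rats (0.61, SE 0.69, adjusted p = 0.454), high in 1 rat alone.

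Summed over measured genes, the 34 ligands amounted to 158 to 173 FPKM in control, 728 to 960 in adenine, 186 to 192 in sham and 903 to 1150 in UUO rats. The 18 signalling receptors amounted to 8.18 to 11.8, 77.4 to 89.2, 10.3 to 12.2 and 63.4 to 87.2 FPKM. The sums did not overlap between healthy and diseased rats in either table.

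Ligands were paired with the signalling receptors they are known to bind, 38 pairs in all. Both members could be tested for 16 pairs in the adenine and 26 in the UUO table. Both were upregulated DEGs in 7 pairs in the adenine model, among them Ccl3, Ccl6, Ccl7 and Ccl9 with Ccr1, and Cxcl16 with Cxcr6. In 5 of the 7 the receptor, Ccr1 or Cxcr6, had passed the minimum by the adenine rats alone, so that its part of the count was set by the minimum. In 4 more only the receptor was one, among them Ccl5 with Ccr1, Cxcl12 with Cxcr4, and Cx3cl1 with Cx3cr1, and in the 5 pairs of Ccr10 and Cxcr3 neither was.

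In the UUO model both members were upregulated DEGs in 19 of 26 pairs. Among them were the 3 tested ligands of Cxcr2, the 3 ligands of Cxcr3, both ligands of each of Ccr4 and Ccr7, and the single pairs Ccl20 with Ccr6, Cxcl16 with Cxcr6 and Xcl1 with Xcr1. In 14 of the 19 the receptor had passed the minimum by the UUO rats alone, which leaves 5 pairs where neither member had. In Cxcl13 with Cxcr5 only the ligand was one. In 4 pairs only the receptor was, among them Ccl9 with Ccr1, Cxcl12 with Cxcr4, and Cx3cl1 with Cx3cr1, and in the 2 pairs of Ccr10 neither was. Pairs share members, so that these counts are not of independent events, and with a pseudocount of 1 the count of 19 was 5.

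**Figure D3:**
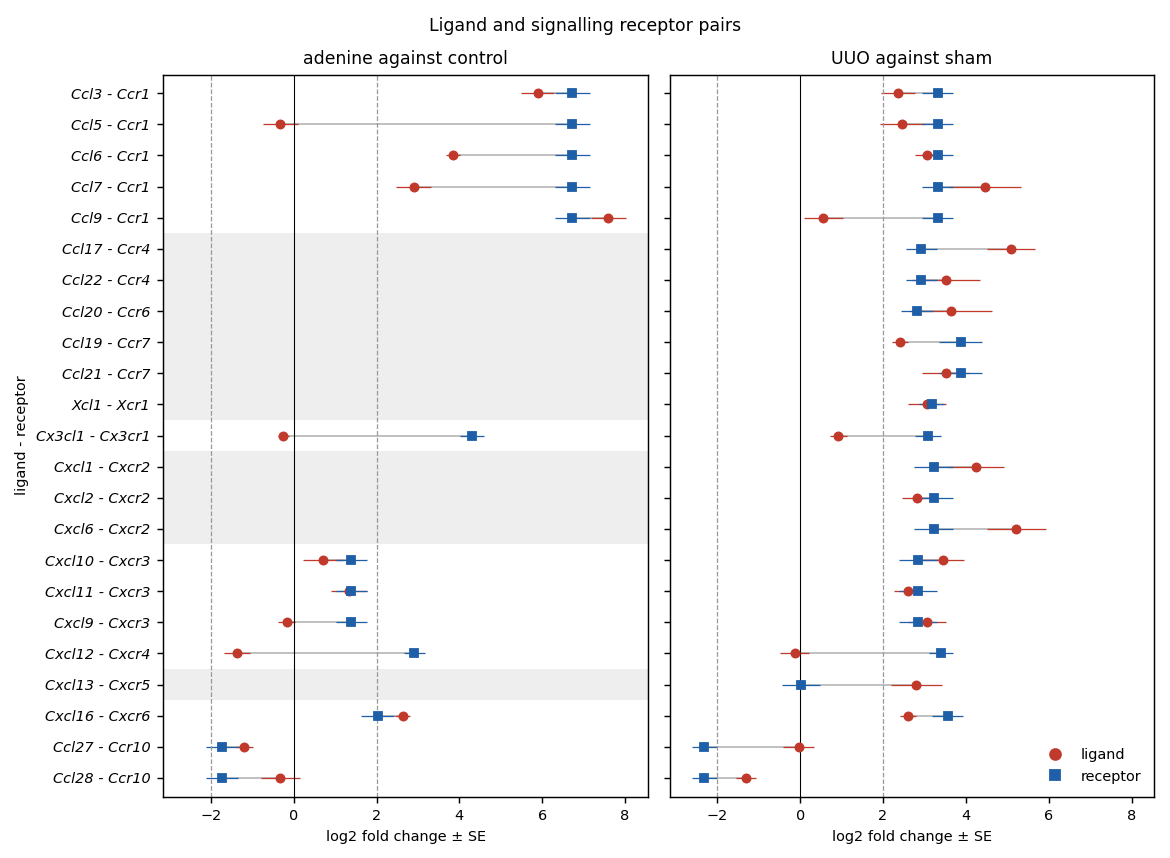
Log2 fold change with its SE of the ligand (red circle) and the signalling receptor (blue square) of the pairs shown, each tested in at least 1 table, adenine on the left and UUO on the right, with dashed lines at the DEG threshold of 2 in each direction and grey rows not tested. In the adenine panel Ccl5, Cxcl12 and Cx3cl1 lie at or below 0 while their receptors lie above 2. Cxcl6 is drawn at a value that depends on the pseudocount, since its sham values are at the lowest value of the table.

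The models were compared by the difference of the 2 log2 fold changes, UUO minus adenine, divided by its standard error. Of the 37 genes tested in both tables, 9 differed with an adjusted p under 0.05 and an absolute difference of at least 2, beside 2.90% of all 13704 genes compared. Higher in the adenine model, beside 1.07% of all genes compared, were Ccl9 (difference -7.05, SE 0.63, adjusted p = 3.07e-05), Ccl3 (-3.52, SE 0.57, adjusted p = 0.00115), Ccr1 (-3.41, SE 0.58, adjusted p = 0.00153) and Cxcl2 (-2.86, SE 0.50, adjusted p = 0.00179). Ccl9 and Ccl3 are ligands of Ccr1, and Cxcl2 is a ligand of Cxcr2.

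Higher in the UUO model, beside 1.82%, were Cxcl9 (3.23, SE 0.50, adjusted p = 0.000881), Xcl1 (2.83, SE 0.54, adjusted p = 0.00263), Ccl5 (2.77, SE 0.68, adjusted p = 0.0103), Cxcl10 (2.73, SE 0.71, adjusted p = 0.0138) and Ccl19 (2.46, SE 0.42, adjusted p = 0.00168). These 5 are known mainly as attractants of T cells, NK cells and dendritic cells. Ccl5 also draws monocytes and, like Ccl3, binds Ccr1. The difference was not called for other ligands of monocytes or neutrophils (Ccl2, Ccl7, Ccl12, Cxcl1 and Cxcl6), nor for Cxcl11 and Cxcr3. Smaller differences that passed the adjusted p were those of Cx3cl1 (1.17, adjusted p = 0.00444), Ackr3 (1.27, adjusted p = 0.0196) and Cx3cr1 (-1.22, adjusted p = 0.0479). The other 25 genes were not called, among them Cxcl16 with a difference of -0.02 (SE 0.26) and Ccl12 with 0.04 (SE 0.92), of which the second is known far less closely. The models also differed in agent, time and operation, and each has its own table, so that none of these can be told apart from the disease process.

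Of the 28 ligands tested in both tables, 14 were upregulated DEGs in both, 2 (Ccl4 and Ccl9) in the adenine model alone, 7 in the UUO model alone and 5 in neither. Over all 13704 genes tested in both tables these shares were 7.60%, 2.51%, 4.76% and 85.1%. Of the 7 receptors, 5 were upregulated DEGs in both, Cxcr3 in the UUO model alone and Ccr10 in neither. Among those upregulated in both, the ligands Ccl12, Ccl22, Cxcl2, Cxcl6 and Cxcl17 and the receptors Ccr1 and Cxcr6 passed the minimum by diseased rats alone in both tables. Their part of the shared counts was set by the minimum. The calls in 1 model alone are counts of thresholds, and the difference itself was called only for the genes given above.

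**Figure D4:**
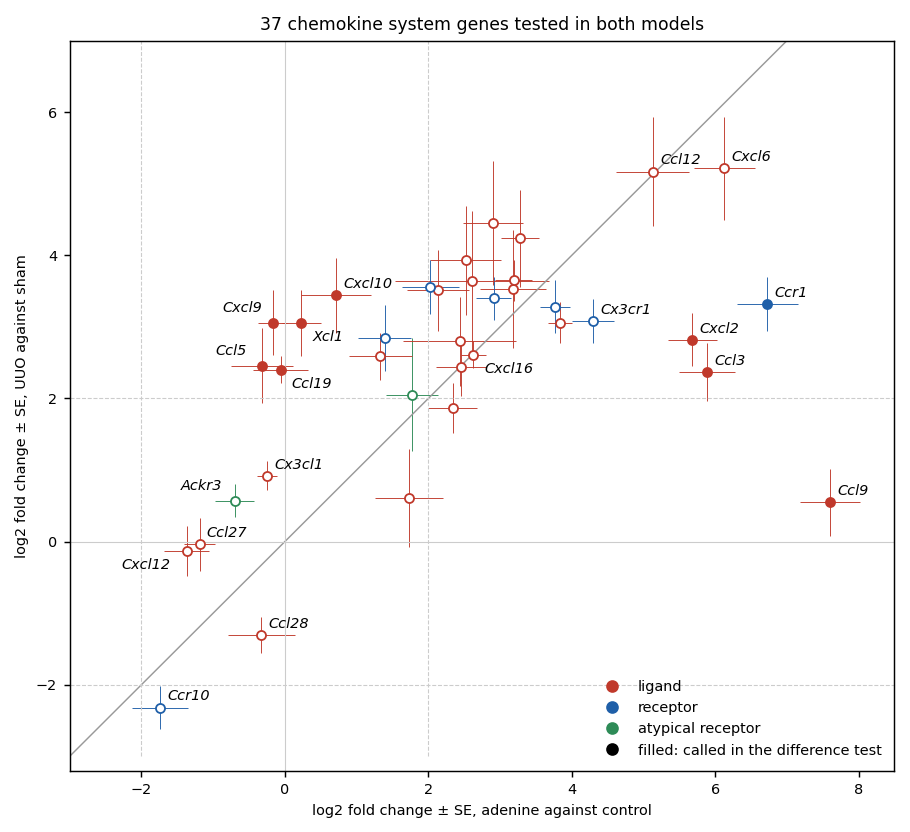
Log2 fold change with its SE in the adenine model (horizontal) and in the UUO model (vertical) for the 37 genes tested in both, with ligands in red, receptors in blue and atypical receptors in green. Filled points were called in the test of the difference, the diagonal marks equal change, and dashed lines mark the DEG threshold of 2. Ccl9 lies at 7.60 and 0.55, far under the diagonal, and Cxcl9, Xcl1, Ccl5 and Ccl19 lie above it near a change of 0 in the adenine model.

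Genes that lie next to each other moved alike in some runs and apart in others. In the gene order of RefSeq on GRCr8, with no more than 2 other protein-coding genes between members, Ccl5, Ccl9, Ccl6, Ccl3 and Ccl4 form one run, whose log2 fold changes in that order were -0.32, 7.60, 3.84, 5.89 and 2.34 with adenine and 2.46, 0.55, 3.06, 2.37 and 1.87 after UUO. In Ccl2, Ccl7 and Ccl12 all members rose, by 3.19, 2.90 and 5.13 with adenine and 3.65, 4.45 and 5.17 after UUO. Likewise Cxcl2, Cxcl1, Cxcl3 and Cxcl6 lie together and rose by 5.68, 3.28, 3.45 and 6.13 with adenine, and the 3 of them tested after UUO rose there. Cxcl11, Cxcl10 and Cxcl9 form a run that rose as a whole after UUO (2.59, 3.44 and 3.06), with 1.33, 0.71 and -0.17 in the adenine model. Ccl27, Ccl19 and Ccl21 were unlike each other, with -1.19, -0.06 and 2.14 in the adenine and -0.04, 2.40 and 3.51 in the UUO model. In a run of receptors, Cxcr6 and Ccr1 were at 2.03 and 6.73 in the adenine and 3.56 and 3.32 in the UUO model.

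Rats of 1 group did not rank alike over the genes. Of the 33 upregulated genes of the UUO model, UUO rat 3 had the highest FPKM for 15, rat 1 for 9 and rat 2 for 9. Rat 1 led for Ccl2, Ccl7, Ccl17, Ccl22 and Ccr7, rat 2 for Cxcl10, Cxcl11 and Cxcl6, and rat 3 for Cxcl9, Ccl5, Xcl1, Ccl21, Cxcr3 and Cxcr6. Ccl11 (eotaxin), which was under the minimum for the test, was at 10.9, 1.09 and 0.189 FPKM in UUO rats 1, 2 and 3. Of the 23 upregulated genes of the adenine model, rats 1, 2 and 3 had the highest value for 6, 8 and 9.

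**Figure D5:**
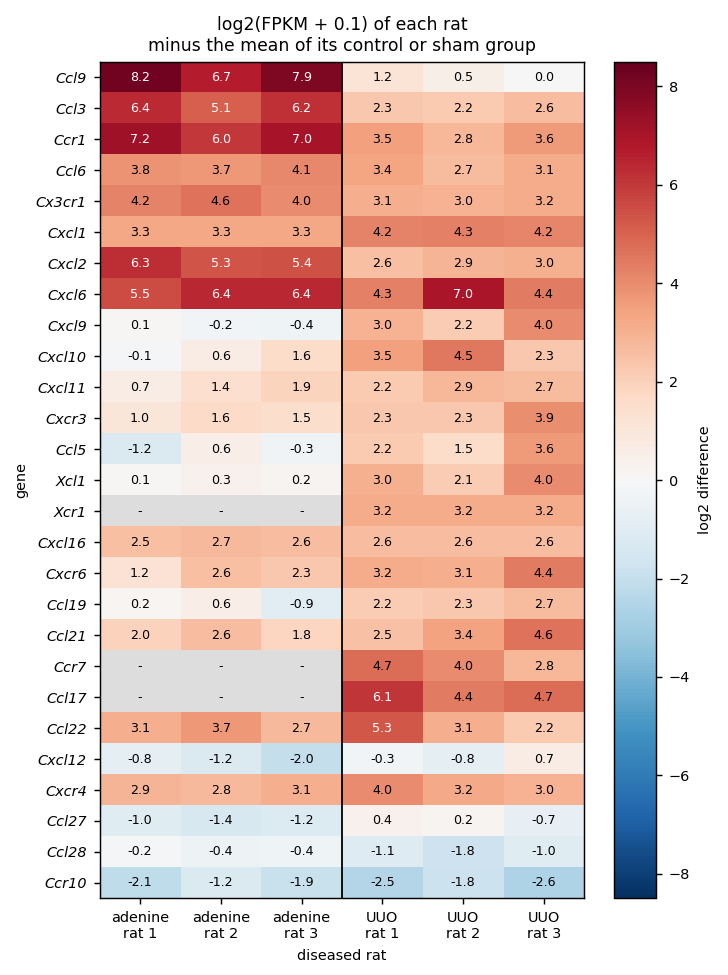
Log2(FPKM + 0.1) of each diseased rat minus the mean of its control or sham group, for 27 genes (rows) in the 3 adenine and 3 UUO rats (columns), with red for higher, blue for lower and grey for genes not tested in that table. Ccl9, Ccl3, Ccr1 and Cxcl2 are darker in the adenine than in the UUO rats. UUO rat 3 is darker than the other UUO rats for Cxcl9, Ccl5, Xcl1, Cxcr3, Cxcr6 and Ccl21.

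Downstream of the receptors, 18 of 36 tested genes of chemokine receptor signalling were upregulated DEGs with adenine and 16 of 35 after UUO, beside 10.7% and 13.2% of all tested genes. In either model 0 were downregulated DEGs, beside 5.03% and 4.21%. Rac2, the GTPase of migrating leukocytes, was at 9.84, 8.90 and 8.61 FPKM in control and 129, 73.6 and 102 in adenine rats (log2 fold change 3.43, SE 0.20, adjusted p = 4.96e-05), and at 11.4, 8.37 and 7.37 in sham and 61.9, 48.8 and 69.9 in UUO rats (2.73, SE 0.20, adjusted p = 5.41e-05). Gnai2, the G protein subunit to which these receptors couple, rose by less than the threshold (1.88, SE 0.11, and 1.93, SE 0.09). Of the genes that limit or trim chemokine signals, 7 of 10 were upregulated DEGs in the adenine and 5 of 10 in the UUO model, beside the same 10.7% and 13.2%. Rgs1, which shortens G protein signals, was at 1.19, 2.74 and 1.91 in control and 66.2, 33.7 and 93.7 in adenine rats, and at 1.59, 0.701 and 1.07 in sham and 7.29, 4.36 and 9.14 in UUO rats. Dpp4, which cleaves the end of Cxcl10 and Cxcl12, fell in both (-1.93, SE 0.37, adjusted p = 0.00428, and -0.98, SE 0.23, adjusted p = 0.00729).

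Of other chemotactic ligands and receptors, 6 of 9 tested were upregulated DEGs and 1 was downregulated in the adenine model, and 6 of 10 were upregulated in the UUO model. The shares of all tested genes were 10.7% up and 5.03% down with adenine and 13.2% up after UUO. C5ar1, the receptor of complement C5a, was at 1.79, 2.56 and 1.44 FPKM in control and 78.6, 42.3 and 64.2 in adenine rats (log2 fold change 4.92, SE 0.29, adjusted p = 4.76e-05), and at 1.89, 1.85 and 1.25 in sham and 23.7, 15.4 and 18.8 in UUO rats (3.46, SE 0.22, adjusted p = 3.61e-05). Mif, a cytokine that also binds Cxcr2 and Cxcr4, fell from 570, 759 and 706 to 73.5, 81.5 and 86.1 FPKM in the adenine model (-3.07, SE 0.14, adjusted p = 2.61e-05) and from 327, 304 and 237 to 78.5, 89.8 and 69.7 in the UUO model (-1.86, SE 0.15, adjusted p = 7.93e-05). Eosinophil and mast cell markers were mostly under the minimum, with 1 of 7 tested in each table and no DEG.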

How the data were processed

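Kidney RNA of 12 rats was analysed from gene-level FPKM values that the authors deposited in 2 tables (control and adenine, sham and UUO). The submitters' processing notes name cutadapt 1.9, HISAT2 2.0.4, StringTie 1.3.4d, DESeq2 and edgeR. The genome build and annotation are not given in the sources used here. Read depth per sample is unknown, so that precision is given by the spread of 3 rats. FPKM summed to 468389 to 630244 per sample. Groups came from the sample labels.

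Genes reaching 0.5 FPKM in 3 or more samples were fitted per table as log2(FPKM + 0.1) with limma 3.58.1 (eBayes with trend) in R 4.3.3, with Benjamini-Hochberg adjustment over each table. The added 0.1 understates changes of low genes. DEGs passed an adjusted p of 0.05 and a log2 fold change of 2 in size. The models were compared by the difference of log2 fold changes over its standard error, with t on the summed degrees of freedom. An exact permutation test of 3 rats against 3 cannot give a p below 0.1. Other steps used Python 3.11.15. The fits were tested on simulated data.

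Members and lists were chosen with earlier results of these data known. Any member could be named, and some results are not reported here. Values per rat were given for families with a DEG, for falls and for genes differing between models. Other genes came from lists of pathway and cell type genes. Alternatives were other pseudocounts, minima and scalings, eBayes without trend, a replicate block, no fold threshold, and leaving out each sample.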

Additional observations from a re-analysis of the deposited data

Results flagged for a closer look

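The log2 fold changes of 9 genes differed between the adenine and UUO models by limma estimates and the test of the difference itself, with 3 rats per group and no overlap of rats where a change was called. For Ccr1 and Cxcl2 the minimum had fixed that lack of overlap in both tables. The difference, UUO minus adenine, was -7.05 for Ccl9, -3.52 for Ccl3, -3.41 for Ccr1 and -2.86 for Cxcl2, which rose more in the adenine model. It was 3.23 for Cxcl9, 2.83 for Xcl1, 2.77 for Ccl5, 2.73 for Cxcl10 and 2.46 for Ccl19, which rose in the UUO model and did not pass the test in the adenine model. Of these, 7 were called under all 21 alternatives that kept the fold threshold, whereas Xcl1 was called under 20 (not with a pseudocount of 1) and Cxcl2 under 18 (not with pseudocounts of 1 and 0.01 or with a minimum FPKM of 1, where it could not be tested).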

How the results depend on the processing

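The counts of upregulated or downregulated DEGs stayed within 1.5 times of the values given under most alternatives. With no minimum FPKM the adenine model had 10 receptor DEGs in place of 6 and 13 pairs with both members upregulated in place of 7, as more genes were tested. With a pseudocount of 1 the UUO model had 5 receptor DEGs in place of 12 and 5 such pairs in place of 19. Leaving out 1 rat at a time gave 15 to 18 ligand DEGs, 5 to 7 receptor DEGs and 6 to 7 pairs with adenine, 21 to 23, 12 to 13 and 17 to 20 after UUO, and 9 genes that differed between the models each time. Median-of-ratios scaling moved the median of all genes from 0.30 to 0.014 with adenine and from 0.62 to 0.032 after UUO, and left 15 and 17 ligand DEGs. It and quantile normalization each made Ccr10 a downregulated DEG with adenine (-2.01 and -2.27). Of the 23 and 34 member DEGs, 15 and 18 were DEGs under every alternative in which they could be fitted, and 19 and 32 without any 1 rat. Directions turned only for genes that were no DEGs. In the adenine model these were Ccl19 (0.21 with FPKM rescaled to the same sum, -0.38 to 0.37 without 1 rat), Ccl28 (-0.84 to 0.15 without 1 rat), Ccl5 (-0.76 to 0.14 without 1 rat), Cx3cl1 (0.02) and Cxcl9 (0.08, both rescaled to the same sum), and Xcl1 (-0.04 by median-of-ratios, -0.33 by quantiles, 0.00 to 0.44 without 1 rat). In the UUO model these were Ackr3 (-0.03 by median-of-ratios), Ccl24 (-0.20 by quantiles, -0.22 to 1.07 without 1 rat), Ccl27 (0.17 rescaled to the same sum, -0.23 to 0.29 without 1 rat), Ccl9 (-0.01 by median-of-ratios, -0.29 by quantiles), Cxcl12 (0.09 rescaled to the same sum, -0.53 to 0.21 without 1 rat) and Cxcr5 (-0.01 with a pseudocount of 0.01, -0.46 by median-of-ratios, -0.79 by quantiles, -0.26 to 0.44 without 1 rat). The cause was not tested. Rats with the same replicate number are different animals. Their deviations from the group means correlated at r = -0.077, -0.123 and -0.049 in the adenine table and 0.05, 0.105 and 0.059 in the UUO table. Rats with different numbers reached 0.113 (control rat 1 and adenine rat 2). With the replicate number as a block the counts were the same: 17 ligand and 6 receptor DEGs and 7 pairs with adenine, 22, 12 and 19 after UUO, and 9 genes that differed between the models. It changed no member's call. Depth is unknown, so that a gene under the minimum is one that fewer than 3 samples of a table had at 0.5 FPKM or more.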
